A study of Mus musculus with 3 samples.

Results

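Keratins and the genes of basal stem cells mark the non-neuronal layers of the olfactory epithelium. The 10 genes described here were chosen by name, with earlier results of these data known. They are among the 18193 genes with a probe set of their own. Of the 10, 7 are genes of horizontal basal cells (Krt5, Krt14, Krt15, Krt17, Trp63, Itgb4 and Itga6) and 3 are keratins of simple epithelia (Krt8, Krt18 and Krt19). They were read by 20 probe sets, 19 of which named 1 gene, and 1 of which named both Krt14 and Krt17.

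RNA was measured in olfactory epithelium cells of Tgn1-2G transgenic mice of both sexes at postnatal days 5 to 8, sorted by fluorescence and hybridised to 1 array per fraction. The GFP+++ sample consisted of 1000000 strongly fluorescent cells, GFP+ of 1300000 weakly fluorescent cells and GFP- of 6800000 cells without fluorescence. All fractions came from animals with the transgene, which is known from other work to drive GFP from control elements of the proneural gene Neurog1. A number of 32 stands in the labels of every fraction and was taken to mean pooled mice, and whether the fractions share animals is not stated. By the submitters' account GFP+++ was rich in immature neurons, GFP+ slightly rich in mature ones, and GFP- held every cell type but few immature neurons.

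Horizontal basal cells are the reserve stem cells of this epithelium. They lie flat on the basement membrane, divide rarely and are held to it by hemidesmosomes, and they rebuild neurons and supporting cells after injury. A keratin filament needs a type I and a type II keratin, and basal cells are known for the pair Krt14 and Krt5, while the sustentacular cells that span the epithelium and reach its apical surface are known for Krt18 and Krt8.

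In GFP+++, the fraction rich in immature neurons, 8 of the 10 genes were at least 2-fold below GFP-, and 0 were 2-fold above it (against 12.4% and 1.92% of all genes compared). The other 2, Krt17 and Itgb4, lay under the floor for low signals in GFP+++. Trp63 was at least 5.85-fold, Krt19 at least 6.47-fold and Krt5 4.23-fold lower, while Krt8 and Krt18 were 2.55-fold and 2.29-fold lower. In GFP+ all 10 genes lay under GFP- but within 2-fold. Of all genes compared there, 51.2% lay below 0, and 0.804% were at least 2-fold lower and 0.607% higher. Staying within 2-fold thus does not set the 10 genes apart. Each group was 1 array, so no difference below has a replicate check and none was tested.

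The signals are MAS5 values, a linear brightness per probe set, and signals under 104 (the pooled median of all probe sets) were raised to that floor before a fold was taken. With 1 array of a pair under the floor, a fold is the least difference the signals allow and is given as at least N-fold. Median signals were 88.2 (GFP+++), 107 (GFP+) and 118 (GFP-), and the floor was passed by 10734 to 12031 genes. The shares of 12.4% and 1.92% are of 12235 genes compared between GFP+++ and GFP-, whose median log2 fold was 0.01. If each array is scaled by its median instead, every gene above the floor on both arrays moves up by 0.42 in GFP+++ against GFP- and by 0.14 in GFP+ against GFP-, so that genes less than this below 0 turn to above 0. The log2 folds of different probe sets of a gene had a pooled SD of 0.30 for GFP+++ against GFP-, 0.24 for GFP+ against GFP- and 0.30 for GFP+++ against GFP+. This spread can hold array measurement error and differences between the transcripts read. It leaves out any variation between replicate samples. All 10 genes passed the floor in GFP+ and in GFP-, and 4 of them (Krt5, Itga6, Krt8 and Krt18) in GFP+++ as well.

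**Figure D1:**
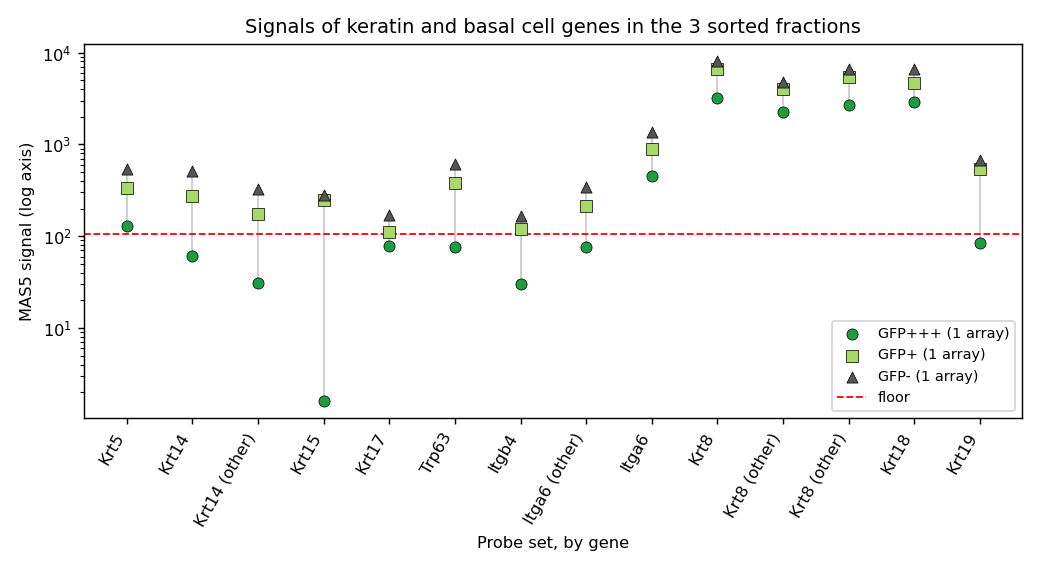
MAS5 signal (log axis) of the 14 probe sets of the 10 genes that passed the floor on at least 1 array, 1 point per array, with the floor as a dashed line; "other" marks a further probe set of the same gene. On every probe set GFP- is the highest and GFP+++ the lowest, and heights of different probe sets cannot be compared.

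The basal keratin pair was near or under the floor in GFP+++ and clearly above it in the other fractions. Krt5, the type II keratin of basal cells, had signals of 128 (GFP+++), 336 (GFP+) and 542 (GFP-) on probe set 1424096_at. The signal thus lay just above the floor in GFP+++, and the log2 fold of GFP+++ against GFP- was -2.08. Its type I partner Krt14 had signals of 60.7, 271 and 511 in the same order on the brightest probe set (1423935_x_at), whose suffix marks possible binding to several transcripts. On a second probe set without that suffix (1460347_at) the signals of Krt14 were 31.0, 174 and 324. Both probe sets lay under the floor in GFP+++, so the fold of Krt14 below GFP- was at least 4.89 on the first and at least 3.10 on the second, and below GFP+ at least 2.60 and at least 1.67. The log2 fold of GFP+ against GFP- for Krt14 was -0.91 on the first probe set and -0.90 on the second, beside -0.69 for Krt5. The remaining Krt14 probe sets, 1455573_at with a highest signal of 25.5 and 1427841_at, shared with Krt17, with a highest signal of 35.2, lay under the floor on all 3 arrays. Krt14, Krt16 and Krt17 are known to be alike in sequence, so how their signals divide between these genes is uncertain.

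The RefSeq promoter table (build GRCm38.p6) held 4 of the 10 genes, which are the 2 keratin pairs of the basal and the apical cells. Their 250 bases before the annotated start are shown because the other 6 genes had no entry. All 10 genes lay below GFP- in both GFP-positive fractions, so that direction does not set these 4 apart. They are the minus strand of chr15:101712906-101713155 for Krt5, of chr11:100206031-100206280 for Krt14 and of chr15:102004343-102004592 for Krt8, and the plus strand of chr15:102027966-102028215 for Krt18. Each is written 5′ to 3′ in the direction of the gene, and capitals mark motif matches.
Krt5: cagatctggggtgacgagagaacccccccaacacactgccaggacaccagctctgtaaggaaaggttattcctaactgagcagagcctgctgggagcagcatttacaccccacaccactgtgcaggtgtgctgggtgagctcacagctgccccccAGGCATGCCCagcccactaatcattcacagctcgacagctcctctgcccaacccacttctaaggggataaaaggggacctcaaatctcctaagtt
Krt14: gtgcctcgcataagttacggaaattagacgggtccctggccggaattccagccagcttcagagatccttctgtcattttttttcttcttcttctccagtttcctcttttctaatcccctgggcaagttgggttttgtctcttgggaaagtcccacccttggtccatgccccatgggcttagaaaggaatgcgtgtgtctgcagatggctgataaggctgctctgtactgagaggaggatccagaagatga
Krt8: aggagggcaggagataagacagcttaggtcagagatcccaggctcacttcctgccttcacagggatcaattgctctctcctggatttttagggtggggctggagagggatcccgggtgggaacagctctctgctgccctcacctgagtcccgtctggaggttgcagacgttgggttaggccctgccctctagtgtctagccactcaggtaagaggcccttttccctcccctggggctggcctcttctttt
Krt18: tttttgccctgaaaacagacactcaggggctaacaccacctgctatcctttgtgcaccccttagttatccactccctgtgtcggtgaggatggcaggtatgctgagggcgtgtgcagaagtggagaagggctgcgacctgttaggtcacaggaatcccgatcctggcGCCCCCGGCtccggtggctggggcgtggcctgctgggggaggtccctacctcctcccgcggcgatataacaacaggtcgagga
Both strands were searched for the p53 family half-site, the sequence class that p63 is known to bind, and for GCCNNNGGC, TGANTCA and TATAAA, the textbook motifs of AP-2, AP-1 and the TATA box. The half-site was found once, in the Krt5 promoter as AGGCATGCCC from position -95 to -86 relative to the start. Of all 32851 promoter windows of that length in the table, 7.13% held such a half-site. GCCNNNGGC was found in the Krt18 promoter as GCCCCCGGC from position -83 to -75, and 13.7% of all windows held it. TGANTCA and TATAAA had no match in these 4 windows, against 6.75% and 12.4% of all windows. The matches did not overlap each other and describe letters only.

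Trp63 encodes p63, the transcription factor that keeps horizontal basal cells in reserve. Its signals were 75.7 (GFP+++), 377 (GFP+) and 611 (GFP-) on 1418158_at, so that GFP+++ lay under the floor and the other fractions well above it. GFP+++ lay at least 3.61-fold below GFP+ for Trp63, and GFP+ lay 1.62-fold below GFP-. The other 3 Trp63 probe sets lay under the floor on all 3 arrays, with a highest signal of 30.1, and give no second reading.

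Krt15, a basal keratin known from stem cells of stratified epithelia, had signals of 1.61 (GFP+++), 247 (GFP+) and 281 (GFP-) on 1422667_at. GFP+ and GFP- were nearly level, with a log2 fold of -0.18. The step below the floor lay between GFP+ and GFP+++ and was at least 2.37-fold. Krt17, a keratin of skin appendages and wounded epithelium, had signals of 77.5, 111 and 170.5 (1423227_at), and the GFP+ value lay just above the floor. A second Krt17 probe set (1420193_at) stayed at 10.1 or less. On the first, GFP+++ lay at least 1.63-fold below GFP-, a bound that cannot exceed the ratio of the GFP- signal to the floor.

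The integrins Itga6 and Itgb4 together form the laminin receptor of hemidesmosomes. Itga6 had signals of 458 (GFP+++), 888 (GFP+) and 1351 (GFP-) on 1422445_at and stayed above the floor on all 3 arrays, with a log2 fold of -1.56 for GFP+++ against GFP- (2.95-fold lower). Its second probe set (1422444_at), at 75.9, 212 and 345, was at least 3.30-fold lower. Against GFP+, the fold of Itga6 in GFP+++ was 1.94 on the first probe set and at least 2.04 on the second, on either side of the 2-fold line. Itgb4 had signals of 29.9, 120 and 167 (1427387_a_at), which puts GFP+++ at least 1.60-fold below GFP-. The log2 folds of GFP+ against GFP- were -0.61 for Itga6 and -0.47 for Itgb4, which differ by less than the probe set SD. Itga6 also pairs with Itgb1 outside hemidesmosomes, and Itgb1 was at -0.82 in GFP+++ against GFP-.

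The apical pair stayed above the floor in all fractions. Krt8 had signals of 3171 (GFP+++), 6692 (GFP+) and 8086 (GFP-) on 1420647_a_at, and its other probe sets gave 2669, 5400 and 6671 (1435989_x_at) and 2255, 3984 and 4814 (1423691_x_at). All 3 read GFP+++ below GFP-, by 2.55-fold, 2.50-fold and 2.13-fold, and below GFP+ by 2.11-fold, 2.02-fold and 1.77-fold. Krt18 had signals of 2891, 4694 and 6630 (1448169_at), 2.29-fold lower in GFP+++. The log2 folds of Krt8 and Krt18 lay 0.15 apart in GFP+++ against GFP-, 0.23 apart in GFP+ against GFP- and 0.38 apart in GFP+++ against GFP+. The probe set SD of a difference of folds is 0.43, 0.34 and 0.42 in these comparisons, so each lay within it. The log2 fold of Krt5 minus that of Krt18 was -0.88 in GFP+++ against GFP- and -0.19 in GFP+ against GFP-. In size, the first of these differences is larger than that SD and the second is not, and neither has a replicate check.

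Krt19, a keratin of simple and ductal epithelia, had its signal under the floor in GFP+++, at 85.3, against 532 (GFP+) and 675 (GFP-) on 1417156_at. The step from GFP+ to GFP+++ was at least 5.10-fold downward, and that from GFP- to GFP+ was 1.27-fold. The bound of Krt19 minus the log2 fold of Krt18 was -1.50 in GFP+++ against GFP-.

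**Figure D2:**
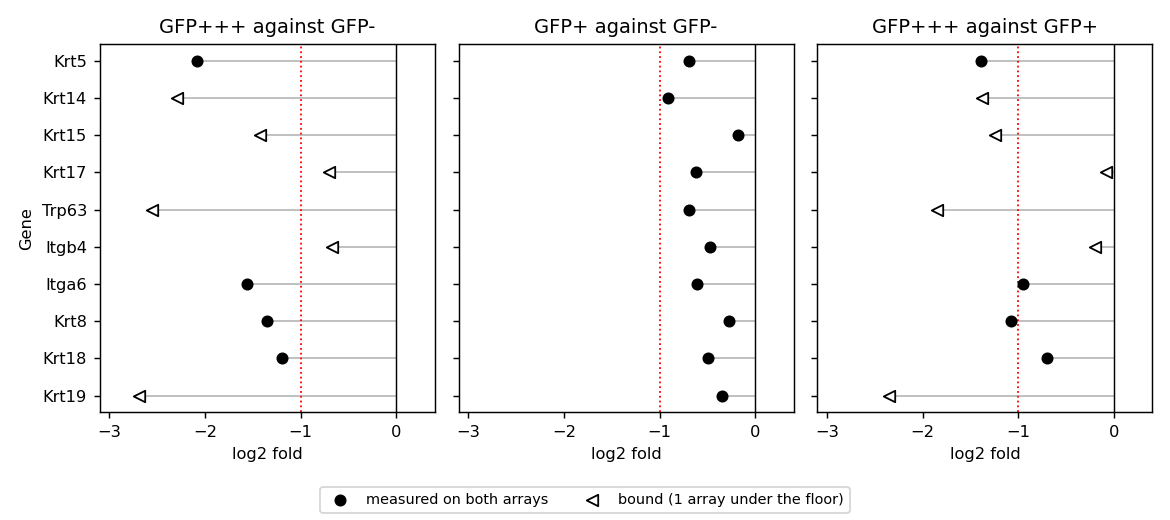
Log2 fold of each of the 10 genes (rows) in the 3 comparisons (panels), 1 array per group; filled points were measured above the floor on both arrays, open triangles are bounds with 1 array under the floor, and the dotted line marks a 2-fold difference. In GFP+ against GFP- all genes lie between -0.91 and -0.18, and in GFP+++ against GFP- 8 of 10 lie past the dotted line.

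Over the 3 comparisons the 10 genes kept 1 direction and differed in size. Their median log2 fold of GFP+++ against GFP- was -1.49, with 6 of them entered at their bound. These 6 lay under the floor in GFP+++ alone, so their folds against GFP- and GFP+ could not lie above 0. Between GFP+ and GFP-, 0 of 10 passed 2-fold against a background of 0.804% lower and 0.607% higher among 12196 genes, and the median was -0.55 against -0.01 for all genes. All values of that comparison were measured above the floor on both arrays, and 51.2% of all genes lay below 0. Between GFP+++ and GFP+, 6 of 10 were at least 2-fold lower (Krt5, Krt14, Krt15, Trp63, Krt8 and Krt19), against 9.34% of 11881 genes, with a median of -1.16 against -0.02 for all genes. That count was 1 of 6 compared (Krt8) with the floor at the 65th percentile of signals, against 5.5% of all genes. It was 7 of 10 with the floor at the 35th, against 13% of all genes. Without probe sets whose suffix marks several transcripts it was 4 of 8, against 8.9%. None was 2-fold higher, against 0.985% of all genes. The order GFP- above GFP+ above GFP+++ held for all 10 genes and for 28.6% of the 12331 genes above the floor on any array, where the steps share the GFP+ array. With median scaling Krt8 and Krt18 lay at -0.93 and -0.78 in GFP+++ against GFP-, within 2-fold, and Krt5 at -1.67. The median of the 10 genes minus that of all genes was then -1.62, against -1.50 with the trimmed-mean scaling. With the floor raised to the 65th percentile of signals, Krt5, Krt14 and Krt15 came within 2-fold in GFP+++ against GFP-, at -0.98, -0.89 and -0.03. With it lowered to the 35th, Krt17 and Itgb4 passed 2-fold, at -1.14 and -1.99. None of the 10 genes lay above 0 under median scaling or under quantile normalization in any comparison. In bulk samples, fewer cells of a type and less RNA per cell cannot be told apart.

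**Figure D3:**
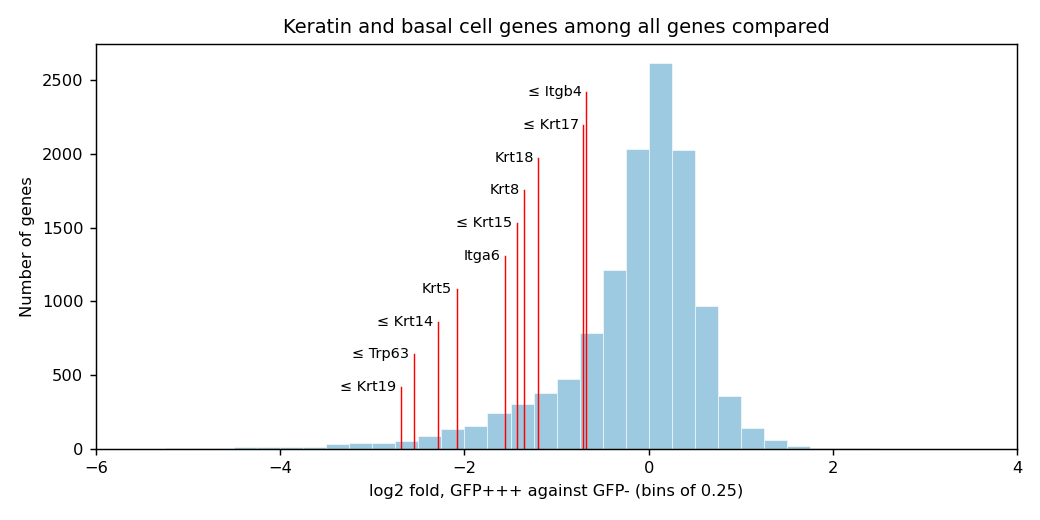
Histogram of the log2 fold of GFP+++ against GFP- over the 12235 genes compared (bars, bins of 0.25), with the 10 keratin and basal cell genes as red lines of arbitrary height; the sign ≤ marks a bound. The bulk of genes lies around 0.01, and the members lie between -2.69 and -0.68.

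The genes also differ by their place in the genome, by the RefSeq gene order. Krt14, Krt15, Krt17 and Krt19 lie in the type I keratin cluster on chromosome 11, where Krt15 and Krt19 are direct neighbours. Both lay under the floor in GFP+++ and at most 1.27-fold apart between GFP+ and GFP- (log2 -0.18 and -0.34). Krt14 lies between Krt9 and Krt16, and Krt17 between Krt16 and Krt42, and Krt16 stayed under the floor on all 3 arrays. Krt5, Krt8 and Krt18 lie in the type II cluster on chromosome 15, where Krt18, a type I keratin, directly follows Krt8. Krt5 lies between Krt6a, which passed the floor in GFP+++ and in GFP- (signals of 133 and 183, against 94.6 in GFP+), and Krt71, which stayed under it on all 3 arrays, as did Krt78 beside Krt8. In both clusters, genes above the floor adjoin genes under it. Itgb4 is on chromosome 11 away from the keratins, Itga6 on chromosome 2 and Trp63 on chromosome 16.

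Most of the keratin family lay under the floor in these fractions. Of the 48 keratin genes on the array, 31 lay under the floor on all 3 arrays and 10 that are not members passed it on at least 1. Among these, Krt23 and Krt7 passed 2-fold downward in GFP+++ against GFP-, and none passed it upward (12.4% and 1.92% of all genes). With median scaling Krt7 came within 2-fold (-0.94), and Krt72 passed it upward (1.03). Krt23, a type I keratin, had signals of 199 (GFP+++), 460 (GFP+) and 696 (GFP-), a log2 fold of -1.80. Krt7, a type II keratin of ducts and glands, had signals of 124, 307 and 317, and like Krt15 was nearly level between GFP+ and GFP- (-0.05, turning to above 0 with median scaling). Krt10 (log2 fold 0.53), Krt72 (0.62) and Krt26 (0.25), keratins of cornified skin and hair, were above 0 in GFP+++ against GFP-, and Krt42 was at -0.28, Krt6a at -0.46 and Krt81 at 0.10. The 5 other type I and 5 other type II keratins compared had medians of -0.14 and -0.24, which turned to 0.14 and 0.11 with median scaling and to 0.02 and 0.10 with quantile normalization.

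Basal cells are anchored by hemidesmosomes and desmosomes, and the genes listed for these structures differed in their folds. Of 14 hemidesmosome and basement membrane genes compared between GFP+++ and GFP-, 6 were at least 2-fold lower and none higher (12.4% and 1.92% of all genes), with a median log2 fold of -0.91. The 6 were Plec and the basement membrane genes Lama5, Nid1, Nid2, Col4a1 and Col4a2. Of the 14, 12 lay below 0, and Itga3 (0.51) and Hspg2 (0.25) lay above it. With median scaling and with quantile normalization Lama5 dropped out. The count was then 5 of 14, against 8.58% and 10.7% of all genes. The basement membrane collagens Col4a1 (-3.66) and Col4a2 (-2.49), which fibroblasts and vessels also make, were among the lowest. Plec, the linker of keratin filaments to hemidesmosomes, was at -1.98, with signals of 185 (GFP+++), 486 (GFP+) and 730 (GFP-). Dst, the other plakin linker, was at -0.91 and level between GFP+ and GFP- (0.10). Col17a1, the hemidesmosome collagen, had signals of 16.1, 85.5 and 163 and passed the floor in the GFP- fraction alone. Its bound, at least 1.56-fold lower in GFP+++ against GFP-, did not reach 2-fold. Plec, Lama5, Nid1, Nid2, Col17a1, Itga3 and Hspg2 were chosen after their values were seen.

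Desmosomes, which tie keratin filaments of neighbouring cells together, had 4 of 10 genes at least 2-fold lower in GFP+++ against GFP- (12.4% of all genes) and a median of -0.83. With median scaling 1 of 10 (Pkp1) was 2-fold lower, against 8.58% of all genes, and Jup passed 2-fold upward at 1.01. The brightest members lay within 2-fold, with Dsp, the filament linker, at -0.10, Dsg2 at -0.36, Pkp2 at -0.33 and Jup at 0.59. Perp, a desmosome protein known as a p63 target (-1.35), Dsc2 (-1.16), Pkp3 (-1.15) and Pkp1 (at least 2.31-fold lower) made up the 4, named after their values were seen. Pkp1 was also the single gene of that list past 2-fold in GFP+ against GFP- (0.804% of all genes were lower).

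Of 16 other genes known from basal stem cells, 8 were past 2-fold downward in GFP+++ against GFP- (12.4% of all genes). Their median was -1.02, with 7 bounds. Notch2, a Notch receptor also known from sustentacular cells, had signals of 860, 2596 and 3971, a log2 fold of -2.21. Igfbp5, a binding protein of insulin-like growth factors, was at -0.73, Bmi1, a Polycomb factor, at -0.25, and Bcl11b, a factor also made by neurons, at 0.12. Cd44, an adhesion receptor, was at least 9.19-fold lower, Snai2, a repressor of epithelial genes, at least 8.01-fold lower and Egfr, the growth factor receptor, at least 4.67-fold lower, and these 3 were named after their values were seen. Snai2 was not among the lower genes without probe sets whose suffix marks several transcripts, nor Egfr with the median over probe sets. Jag2 (0.22) and Icam1 (at least 1.92-fold lower), also named after their values were seen, did not pass 2-fold. The same list had 0 of 16 past 2-fold in GFP+ against GFP- (0.804% lower and 0.607% higher among all genes) and a median of -0.60. The list of globose basal cells, the active progenitors above the horizontal ones, had a median of -0.94 over 10 genes in GFP+++ against GFP-. In it 5 genes were at least 2-fold lower (12.4% of all genes), all but Kit and Lgr5 genes of dividing cells (Mki67, Top2a and Cdk1). Hes6 (-0.17), Neurod1 (-0.71), Insm1 (0.18) and Ezh2 (0.00) were its brightest members.

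Sustentacular genes had a median of -1.57 over 14, beside -1.35 for the 3 simple keratins and -1.56 for the 7 basal members. The bright enzymes Cyp2g1 (-0.67) and Cbr2 (-0.67) and the lipid carrier Sec14l3 (-0.81) lay nearer to 0 than Krt8 and Krt18, and the enzyme Cyp2f2 (-1.69) below them. In all, 11 of the 14 sustentacular genes were at least 2-fold lower (12.4% of all genes). Among them were the transcription factors Sox2 (-1.37) and Pax6 (-1.94), named after their values were seen. The list median was -0.48 in GFP+ against GFP-.

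**Figure D4:**
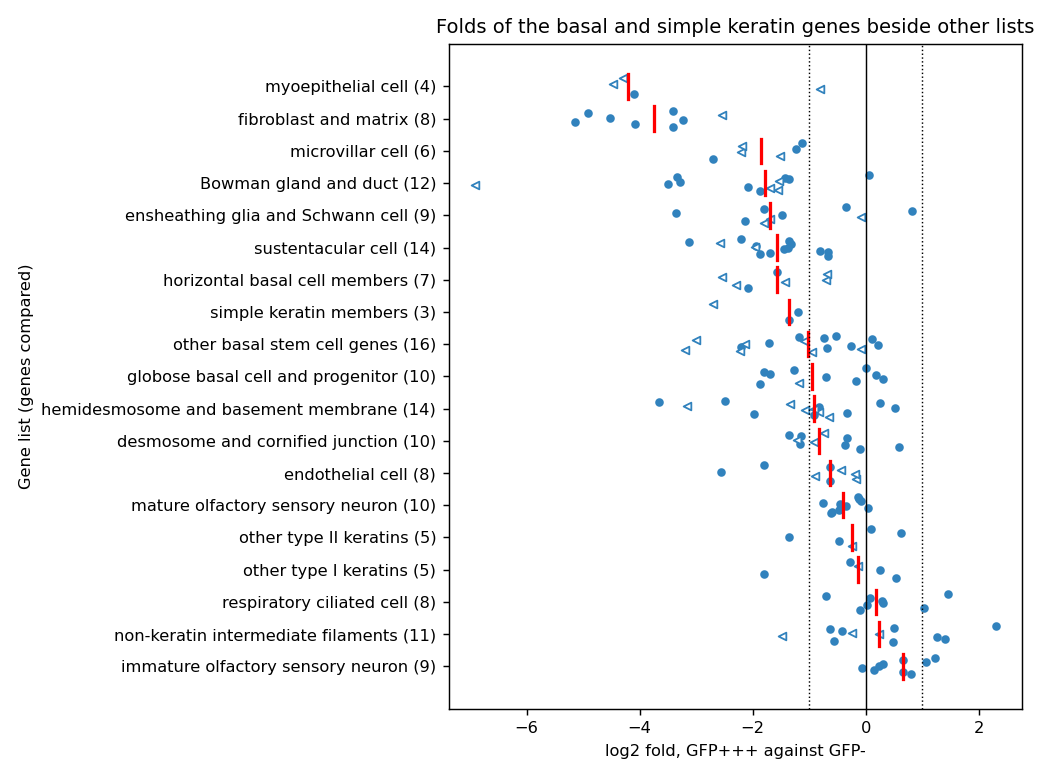
Log2 fold of GFP+++ against GFP- for the genes of 19 lists (rows, with the number of genes compared), 1 array per group; filled points were measured on both arrays, open triangles are bounds, red bars are list medians and dotted lines mark 2-fold. The basal members (median -1.56) and simple keratins (-1.35) lie among the non-neuronal lists, between fibroblast genes (-3.74) and immature neuron genes (0.66).

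Several of these genes are also made by other cells of the mucosa. Krt5 and Krt14 are known in myoepithelial cells of glands, whose list had a summed signal of 517 (GFP+++), 6257 (GFP+) and 10227 (GFP-). The GFP- sum came mostly from Acta2 (5612), Myl9 (2303) and Tagln (2054), and which cells made these RNAs was not tested. In that list 3 of 4 genes compared passed 2-fold downward in GFP+++ against GFP- (Acta2, and by their bounds Myl9 and Tagln), beside 12.4% of all genes. Myh11 passed the floor in GFP- alone, and Cnn1 and Oxtr lay under it on all 3 arrays. Itga6 is known in vessels, and the 9 endothelial genes summed to 695, 1639 and 2208, with 2 of 8 compared at least 2-fold lower, 4 of the 8 being bounds, and Tie1 under the floor throughout. Itgb4 is known in Schwann cells, whose list with that of ensheathing glia summed to 4611, 9682 and 13555, with 6 of 9 at least 2-fold lower and Gfap under the floor throughout. Mbp of that list lay the other way, with signals of 1459, 917 and 827 (log2 0.82 in GFP+++ against GFP-). With median scaling Mbp passed 2-fold upward. Krt7, Krt18 and Krt19 are known in ducts, and gland and duct genes, Krt7 among them, summed to 20941, 41005 and 64713, with 11 of 12 at least 2-fold lower. Bright probe sets weigh most in such sums. Slc12a2 alone had 12300 in GFP+++, with a log2 fold of 0.05 against GFP-. Microvillar cell genes summed to 2340, 4888 and 7574, with 6 of 6 at least 2-fold lower and Trpm5 and Chat under the floor throughout. All 8 fibroblast genes passed 2-fold downward. Each of these counts stands beside 12.4% of all genes at least 2-fold lower. The part of these cell types in the signals of the keratin and basal cell genes was not tested. Respiratory epithelium also has Krt5 and Trp63 basal cells. The genes listed for its ciliated cells had a median of 0.18 in GFP+++ against GFP-. Of 8 compared, 0 were at least 2-fold lower and 2 higher (12.4% and 1.92% of all genes). Dnah5 and Spag6 lay under the floor throughout. Whether the signals of this list came from respiratory cells was not tested.

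Genes with a pattern most like that of Krt5 and Krt18 were sought by the Euclidean distance of their log2 folds of GFP+++ and of GFP+ over GFP-, over 3 arrays and among 10457 other genes above the floor on all of them. Nearest to Krt5 were Dusp6 (distance 0.02), Uhrf1 (0.04), Rcn1 (0.07), Myb (0.08) and Bpifa1 (0.08). Nearest to Krt18 were Sh3d19 (0.01), Pdk3 (0.02), Cenpa (0.05), Tspan9 (0.05) and Shcbp1 (0.06). Within a distance of 0.3, about the probe set SD, lay 101 genes for Krt5 and 298 for Krt18, so these neighbours are few among many.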

How the data were processed

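The values deposited by the authors are linear intensity values, 1 per probe set and array, made with MAS5 per the submitters' processing notes. Which version and settings they chose is not given in the sources used here. Each array had a 2% trimmed mean of 500.0. No detection calls were used, so probe sets of unexpressed genes also carry positive values.

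Rescaling to an exactly equal 2% trimmed mean changed values by at most 0.00048%. Of 45101 probe sets, 34958 had 1 symbol in the platform annotation, 932 several and 9211 none. A gene's folds were taken on its brightest probe set by mean signal over the 3 arrays, and every probe set of the members was read. The 64 control probe sets were left out of the gene table. Calls were made from 2-fold upward, leaving out of a comparison any gene below the floor in both fractions. Lists were described by counts and medians, with up to 4 of the brightest members as examples. Of the listed genes, 5 stood in 2 lists (Gfap, Krt7, Ngfr, Notch2 and Sox10). The members and lists were chosen with earlier results of these data known. Python 3.11.15, pandas 2.3.3 and scipy 1.17.1 were used, and the steps were tested on simulated arrays. Median scaling, quantile normalization, floors at the 35th and 65th percentiles, and other choices of probe set were tried. The number of arrays limits the precision.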

Additional observations from a re-analysis of the deposited data

How the results depend on the processing

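No paired analysis was possible because each group had 1 array. With the floor at the 65th percentile (a signal of 276), 5 members were at least 2-fold lower in GFP+++ against GFP- and 1 in GFP+++ against GFP+, in place of 8 and 6. The share of all genes at least 2-fold lower was then 7.61% and 5.5%, in place of 12.4% and 9.34%. Krt5, Krt14 and Krt15 then had bounds within 2-fold in the first comparison, and 2 members in the first and 4 in the second lay under the floor on both arrays. With the floor at the 35th percentile the counts were 10 and 7 (16.4% and 13% of all genes). Scaling by medians gave 6 and 5 (8.58% and 6.4%), and quantile normalization 8 and 6 (10.7% and 7.47%). The median over probe sets gave 7 and 5 (10.6% and 7.77%). Leaving out probe sets ending _x_at, _s_at or _a_at gave 7 and 4 (11.8% and 8.9%). This last choice gave no value for Krt8 and Itgb4, and the median over probe sets none for Trp63 and Krt17. In GFP+ against GFP- the count was 0 under each of these, against 0.384% to 1.55% of all genes. No member was 2-fold higher or lay above 0 in any comparison, but a bound with GFP+++ under the floor could not lie above 0.

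Over all genes, the calls in GFP+++ against GFP- were 1522 lower and 235 higher. They were 1045 and 1129 when arrays were scaled by medians, 1306 and 367 after quantile normalization, 2335 and 302 with the low floor and 746 and 152 with the high floor. In GFP+ against GFP- 98 lower and 74 higher became 46 and 131 with median scaling, 220 and 118 with the low and 38 and 40 with the high floor, and in GFP+++ against GFP+ 1110 and 117 became 767 and 416, 1814 and 170, and 526 and 71. The lower share of calls went with median scaling from 86.6% to 48.1%, from 57.0% to 26.0% and from 90.5% to 64.8% in that order of comparisons. Bounds of dim members moved with the floor by construction, as for Krt15 from -1.43 to -2.74 and -0.03 with the low and the high floor.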

Other observations

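Intermediate filaments other than keratins lay on both sides of 0. Of 11 such genes compared between GFP+++ and GFP-, 3 passed 2-fold upward (1.92% of all genes, 9.27% with median scaling) and 1 downward (12.4% of all genes), and the median log2 fold was 0.24. With the median over probe sets, 2 of 10 passed upward (Ina and Bfsp2) and 0 downward, against 1.86% and 10.6% of all genes. Prph, the peripherin of peripheral neurons, had signals of 3404 (GFP+++), 1423 (GFP+) and 1278 (GFP-), a log2 fold of 1.41. Ina, the internexin of developing neurons, had 4205, 1775 and 1749 (log2 1.27). Both were level between GFP+ and GFP-, at 0.15 and 0.02. Bfsp2, a filament protein best known from the lens, had 1116, 259 and 224 (log2 2.32). Nefl, the light neurofilament, lay the other way, with 37.6, 186 and 292 (at least 2.79-fold lower). Vim, the filament of mesenchyme, glia and young neurons, was at 0.49, and the lamin Lmnb1 at -0.63. Bfsp2 and Nefl were named after their values were seen. Immature neuron genes had a median of 0.66 over 9 genes in the same comparison, and mature neuron genes -0.40 over 10, which turned to 0.01 with median scaling.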
